A study of Homo sapiens with 15 samples.

Results

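The genes described here were 10 immediate early transcription factor genes: the FOS family members FOS, FOSB, FOSL1 and FOSL2, the JUN family members JUN, JUNB and JUND, the zinc finger gene EGR1, and the orphan nuclear receptor genes NR4A1 and NR4A3. They were taken by symbol, through their Ensembl identifiers, from the 60670 genes of a raw count table, and all 10 were found. All 10 also passed the filter on low counts that left 18563 genes for testing. Each had at least 12 counts in every library.

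RNA was sequenced from HT-1080, a line derived from a human fibrosarcoma that carries an activated NRAS allele, in 5 groups of 3 libraries. Cycling cells had received the vehicle DMSO and carry the time label 6 h. The other 4 groups had been made senescent by 6 days of expression of a dominant negative form of TRF2, a protein that caps telomeres, and then received DMSO for 6 h, 1 uM GNF-7 for 6 h, DMSO for 24 h or 1 uM GNF-7 for 24 h. The kinase inhibitor GNF-7 is described in the series title as an activator of GCN2, a kinase encoded by EIF2AK4. All cells grew at 5% oxygen in medium with 10% tetracycline-free serum. The labels do not say whether the cycling cells carried the TRF2 construct, and no group here holds cycling cells with GNF-7 or cycling cells at 24 h. The labels call the 3 libraries of a group biological replicates, without saying whether they came from separate cultures, so a p-value measures the spread between these libraries, which may be technical.

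Immediate early genes are transcribed within minutes of a growth factor, stress or calcium signal, without need for new protein. FOS and EGR1 promoters are read by SRF together with ELK factors, which ERK phosphorylates, and many promoters of the class also bind CREB or ATF proteins. FOS and JUN proteins pair through leucine zippers into AP-1, EGR1 binds GC-rich sites, and NR4A receptors act without a known hormone. In cells with RAS signalling, FOSL1 and JUN are maintained as long-lasting AP-1 members, while FOS, FOSB and EGR1 transcripts decay quickly.

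The promoter sequences of 5 of the genes are shown because these genes represent the patterns below: FOS, FOSB and EGR1 fell with GNF-7, JUN fell to a lesser extent, and NR4A3 rose. Sequences are from RefSeq (GRCh38.p14), each read 5′ to 3′ on the gene's strand. The table of promoters matched 9 of the 10 genes, with FOSL1 missing. Capitals mark TGACGT, the core of the CREB and ATF binding site, on either strand; TGACATCA, the site of JUN and ATF2; and the CArG box, the SRF site. The lines for FOS (chr14:75278578-75278773, plus strand), FOSB (chr19:45467746-45467994, plus strand), EGR1 (chr5:138465229-138465478, plus strand) and NR4A3 (chr9:99821635-99821854, plus strand) stop at the RefSeq start or at the GENCODE start, whichever comes first, and for JUN (chr1:58784096-58784125, minus strand) 30 bases around the match are given.
FOS: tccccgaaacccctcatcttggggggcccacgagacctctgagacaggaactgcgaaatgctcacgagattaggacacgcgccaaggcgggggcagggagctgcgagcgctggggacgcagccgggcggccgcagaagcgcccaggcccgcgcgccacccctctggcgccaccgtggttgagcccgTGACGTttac
FOSB: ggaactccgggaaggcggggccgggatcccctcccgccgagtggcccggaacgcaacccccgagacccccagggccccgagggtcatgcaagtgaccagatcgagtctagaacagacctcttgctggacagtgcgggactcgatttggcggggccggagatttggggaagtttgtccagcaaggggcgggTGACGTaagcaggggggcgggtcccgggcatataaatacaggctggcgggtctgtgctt
EGR1: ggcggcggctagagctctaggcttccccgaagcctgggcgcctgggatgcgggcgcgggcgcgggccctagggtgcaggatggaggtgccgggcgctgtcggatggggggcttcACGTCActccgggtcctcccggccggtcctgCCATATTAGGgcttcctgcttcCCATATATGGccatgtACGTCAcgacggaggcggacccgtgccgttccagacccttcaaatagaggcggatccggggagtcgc
NR4A3: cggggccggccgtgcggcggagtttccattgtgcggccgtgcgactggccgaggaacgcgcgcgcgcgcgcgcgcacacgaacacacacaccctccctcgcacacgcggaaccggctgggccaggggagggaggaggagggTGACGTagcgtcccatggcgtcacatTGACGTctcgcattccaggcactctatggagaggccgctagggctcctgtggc
JUN: aggccttggggTGACATCAtgggctatttt

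In the 250 bases before the RefSeq start, TGACGT was present in 6 of the 9 matched genes (EGR1, FOS, FOSB, FOSL2, JUND and NR4A3), against 7.10% of 35116 promoters in the table. FOS had it 59 to 64 bases before the start and FOSB 55 to 60 bases before it. EGR1 had it at 2 places, 62 to 67 and 131 to 136 bases before the start. NR4A3 had it at 3 places, of which the one nearest the start, 20 to 25 bases before it, lies past the GENCODE start and is not printed. The full palindrome TGACGTCA, which holds TGACGT on both strands, was present in JUND and in 1.65% of promoters. CArG boxes were found in EGR1 alone among these genes, at 74 to 83 and 96 to 105 bases before the start, and in 1.16% of promoters. The letters TGACATCA were found 60 to 67 bases before the start of JUN and in 2.38% of promoters. The EGR motif GCGNGGGCG was present in EGR1 and in 8.42% of promoters. No window of these genes held the AP-1 motif TGANTCA (6.57% of promoters), the NR4A motif AAAGGTCA (1.05%) or TGATGNAA (3.14%), the composite motif of C/EBP and ATF proteins. Both strands were searched for each motif, and a match describes the letters only. Bases farther upstream were not searched, so a motif absent here, such as the CArG box in FOS, may lie outside the window.

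Library totals ranged from 25991007 to 32323393 counts, and all levels below are CPM (counts scaled to a common library size with TMM factors) unless stated per kb of exon. TERF2, the gene of the expressed TRF2 mutant, was higher in senescent vehicle than in cycling libraries (log2 fold change 2.30, edgeR adjusted p 1.79e-48), as a check of the labels, although mutant and endogenous transcripts are counted together. TERF2 was not level among the senescent groups. With GNF-7 it was lower than in vehicle at 6 h (-0.37, edgeR adjusted p 7.34e-12) and at 24 h (-0.73, edgeR adjusted p 3.53e-24). In vehicle it was lower at 24 h than at 6 h (-0.39, edgeR adjusted p 1.9e-11). The part of TERF2 in the differences below was not tested. The share of counts in mitochondrial genes was 3.75% to 5.01% in cycling libraries, 11.2% to 12.4% in vehicle and 13.2% to 15.3% in GNF-7 at 6 h, and 15.1% to 18.7% in vehicle and 22.6% to 24.1% in GNF-7 at 24 h. It thus differed between the groups compared below, and its part in the differences of the genes was not tested. Of 8 mesenchymal markers, 6 were tested, and the list summed to 7676 to 10050 CPM in all groups except GNF-7 at 24 h, where it was 5377 to 5675 CPM. With GNF-7 at 24 h, 5 of the 6 fell and 1 rose, beside 29.7% of all genes called lower and 29.3% higher. Most of the lower sum came from SPARC, at 3247 ± 238 CPM in vehicle and 623 ± 19 CPM in GNF-7, and FN1, at 1885 ± 90 and 860 ± 27 CPM, while VIM was at 3863 ± 178 and 3557 ± 119 CPM (mean ± SD, n = 3, genes named after their values were seen). THY1 had no count in any group. Of 8 epithelial markers, 3 were tested, with sums from 743 to 760 CPM in cycling libraries down to 294 to 302 CPM in GNF-7 at 24 h, nearly all from KRT8 and KRT18; CDH1 and KRT14 had no count in cycling libraries. With GNF-7, at 6 h and at 24 h, KRT8 and KRT18 fell and 1 marker rose, ESRP1, a splicing regulator named here after its values were seen, from 0.123 ± 0.053 to 0.962 ± 0.055 CPM at 6 h and from 0.159 ± 0.083 to 2.65 ± 0.40 CPM at 24 h (mean ± SD, n = 3). The 7 haematopoietic and endothelial markers summed to at most 1.66 CPM in any library, with CD3E at 0 in the cycling and 6 h vehicle libraries. Fewer RNA molecules per cell and fewer cells with the transcript cannot be told apart in these bulk libraries.

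Senescent cells in vehicle at 6 h were first set against cycling cells. FOS, FOSL1 and JUN were lower and FOSL2, JUNB, NR4A1 and NR4A3 higher, and FOSB, JUND and EGR1 were not called. The 7 called of 10 compare with 70.0% of all 18563 genes called in this contrast (35.6% higher and 34.4% lower), and the libraries of the 2 groups did not overlap for 7 genes, against 71.5% of all genes, so the share is near the background. The median log2 fold change of the 10 genes was 0.13, beside 0.06 for all genes.

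GNF-7 was then set against vehicle within senescent cells. At 6 h FOS, FOSB, FOSL1, JUN, JUNB and EGR1 were lower, FOSL2, NR4A1 and NR4A3 higher and JUND was not called. These 9 of 10 compare with 39.3% of all genes called (17.9% higher and 21.4% lower), and the libraries of 9 genes did not overlap, against 47.7% of all genes. At 24 h 9 of 10 genes were again called, 2 higher (NR4A1 and NR4A3) and 7 lower, with FOSL1 not called. The background at 24 h was 58.9% called (29.3% higher and 29.7% lower), and the libraries of 9 genes did not overlap, against 63.2% of all genes. All 10 genes pass a filter at a mean of 5 CPM, and calls were more frequent among genes at that level. However, NR4A1 and NR4A3 reach this mean through GNF-7 at 6 h, a group compared here, at means of 16.5 and 17.3 CPM. In every other group their means were at most 5.46 and 5.00 CPM, which limits each use of this filter as a background for them. A fit of the 11234 genes passing this filter called 6042 at 6 h and 8142 at 24 h. The median log2 fold change of the 10 genes was -0.38 at 6 h and -0.27 at 24 h, beside 0.01 and 0.04 for all genes.

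**Figure D1:**
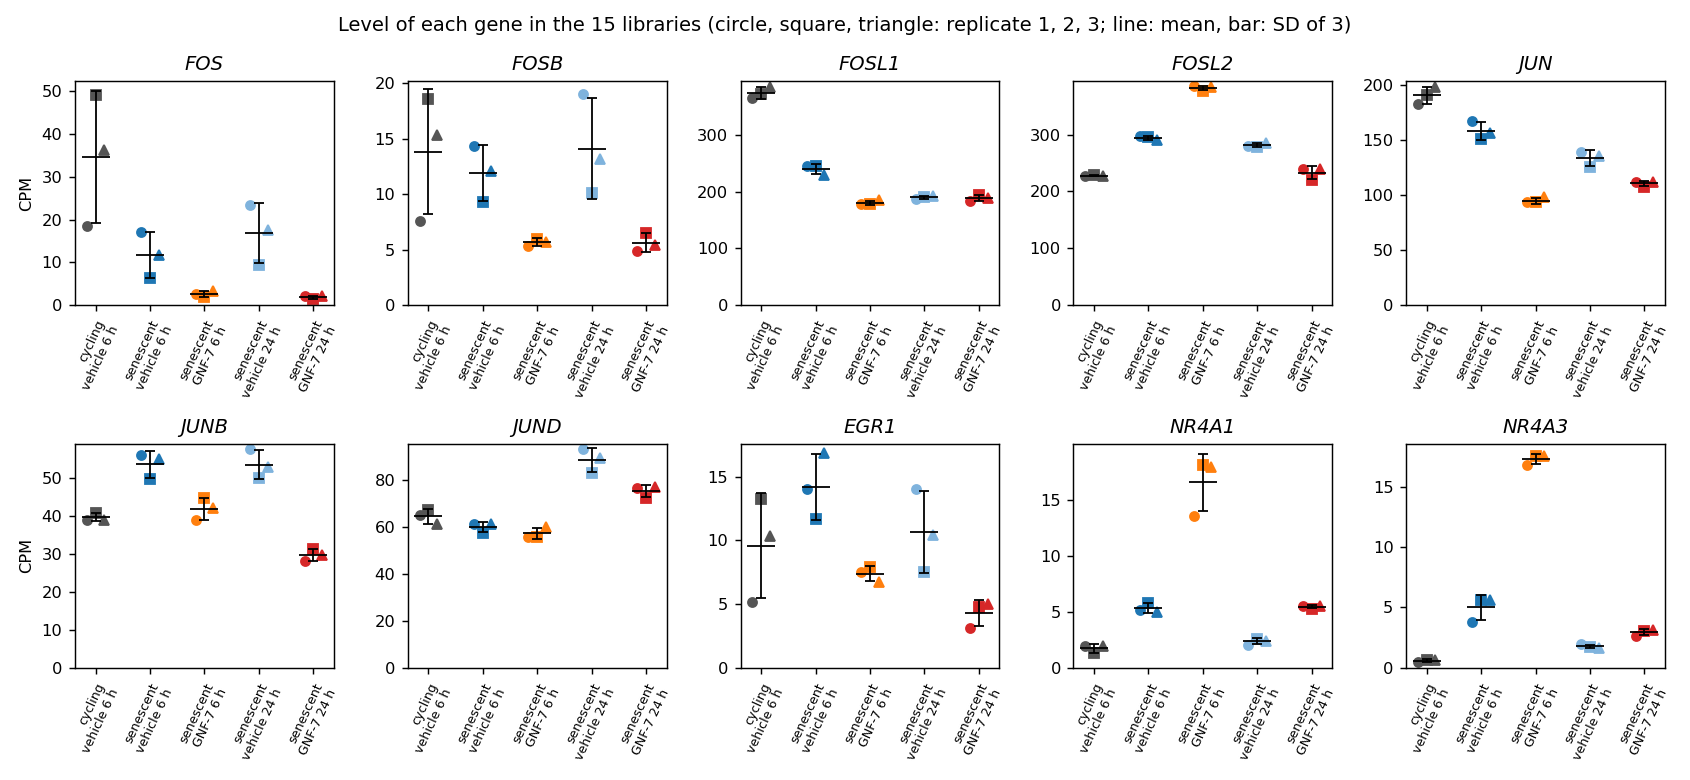
Level of each of the 10 genes in CPM (vertical axis, starting at 0) in the 15 libraries, by group; symbols are libraries, the line is the mean and the bar the SD of 3. FOS, FOSB and EGR1 are low in both GNF-7 groups and scatter widely in vehicle, whereas NR4A1 and NR4A3 stand highest in GNF-7 at 6 h.

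FOS (ENSG00000170345, chromosome 14, 75278774 to 75282230, plus strand of GRCh38) encodes the founding FOS protein, which binds DNA only with a JUN partner. It was at 18.5, 49.1 and 36.3 CPM in the cycling libraries, at 17.2, 6.44 and 11.6 CPM in senescent vehicle at 6 h and at 23.3, 9.42 and 17.7 CPM in senescent vehicle at 24 h. With GNF-7 it was at 2.66, 1.89 and 3.21 CPM at 6 h and at 2.10, 1.33 and 2.03 CPM at 24 h. Every GNF-7 library lay below every vehicle library. The lowest cycling library lay just above the highest senescent vehicle library at 6 h, and inside the range of senescent vehicle at 24 h. FOS fell by 2.17 on the log2 scale with GNF-7 at 6 h (SE 0.57, edgeR adjusted p 0.0111) and by 3.21 at 24 h (SE 0.59, edgeR adjusted p 0.00067), the latter being 9.26-fold lower. It was also lower in senescent vehicle than in cycling cells, by 2.97-fold (log2 fold change -1.57, SE 0.43, edgeR adjusted p 0.00729). The call at 6 h was lost under limma voom (adjusted p 0.1), and the senescence call in a fit of only those groups (edgeR adjusted p 0.0595).

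FOSB (ENSG00000125740, chromosome 19, 45467995 to 45475179, plus strand), whose protein accumulates after repeated stimulation as a truncated form in neurons, was lower with GNF-7 at both times. The cycling libraries were at 7.60, 18.6 and 15.3 CPM, those of senescent vehicle at 14.3, 9.32 and 12.0 CPM at 6 h and at 19.1, 10.1 and 13.2 CPM at 24 h. GNF-7 libraries were at 5.28, 6.00 and 5.73 CPM at 6 h and at 4.84, 6.53 and 5.45 CPM at 24 h, all below every other library. The 3 groups without GNF-7 overlapped one another. FOSB fell by 1.07 at 6 h (SE 0.34, edgeR adjusted p 0.0291) and by 1.33 at 24 h (SE 0.34, edgeR adjusted p 0.00556). In senescence its log2 fold change was -0.23 and was not called (edgeR adjusted p 0.53, 95% interval -0.93 to 0.46). The call at 6 h was lost in 5 of the 6 fits that each left out a library of the groups compared: vehicle replicate 1 (-0.91, edgeR adjusted p 0.103), vehicle replicate 3 (-1.06, p 0.0673) and GNF-7 replicates 1 (-1.02, p 0.0833), 2 (-1.09, p 0.0692) and 3 (-1.08, p 0.0737). It was also lost when genes of low count were kept in the test (edgeR adjusted p 0.0567) and under limma voom (adjusted p 0.0632). The call at 24 h remained in all 6 such fits, with adjusted p up to 0.0282.

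EGR1 (ENSG00000120738, chromosome 5, 138465490 to 138469315, plus strand), a zinc finger factor that ERK signalling induces, was at 5.15, 13.3 and 10.4 CPM in cycling libraries, 14.0, 11.7 and 16.9 CPM in senescent vehicle at 6 h and 14.0, 7.55 and 10.4 CPM in senescent vehicle at 24 h. GNF-7 libraries were at 7.49, 7.92 and 6.75 CPM at 6 h and at 3.11, 4.74 and 5.01 CPM at 24 h. At each time all GNF-7 libraries were below all senescent vehicle libraries of that time, but those at 6 h lay within the range of the cycling libraries. EGR1 fell with GNF-7 by 0.94 at 6 h (SE 0.32, edgeR adjusted p 0.0388) and by 1.32 at 24 h (SE 0.35, edgeR adjusted p 0.00753). At 6 h this call too was lost in 5 of 6 fits that each left out a library: vehicle replicate 1 (-0.95, edgeR adjusted p 0.0798), vehicle replicate 3 (-0.80, p 0.124) and GNF-7 replicates 1 (-0.95, p 0.0853), 2 (-0.98, p 0.0798) and 3 (-0.88, p 0.11), and keeping genes of low count in the test also lost it (edgeR adjusted p 0.0709). At 24 h it remained in all 6, with adjusted p up to 0.0374. In senescence the log2 fold change was 0.55 and was not called (edgeR adjusted p 0.143), but without cycling replicate 2 it was 0.84 and called (edgeR adjusted p 0.0485).

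Among genes with a mean of at least 5 CPM, FOS, EGR1 and FOSB were near the top for differences between replicates. Their standard deviations of log2 CPM within groups were 0.59, 0.43 and 0.40, which are ranks 4, 9 and 14 from the highest of 11233 genes with a mean of at least 5 CPM, where the median gene had 0.08. By contrast FOSL1 and FOSL2 had 0.04 and 0.03. Over all 18563 genes tested, with those of low count, FOS, EGR1 and FOSB exceeded only 90.6%, 80.4% and 78.6% of genes. The deviations of a library from its group mean moved together for several of the genes. Pearson's r over the 15 libraries was 0.76 for FOS and FOSB, 0.64 for FOS and EGR1, 0.91 for FOSB and EGR1 and 0.88 for FOS and JUN, against 0.02 for FOS and FOSL1. Cycling replicate 1 was the low library for all 3 of FOS, FOSB and EGR1 in its group, and replicate 2 the low one in both senescent vehicle groups. In the GNF-7 groups FOS did not share this movement with FOSB and EGR1. In both GNF-7 groups replicate 2 was lowest for FOS, at -0.41, but above the group mean for FOSB (0.08 at 6 h and 0.23 at 24 h) and EGR1 (0.10 and 0.17). Other pairs still moved together in GNF-7 at 24 h. There FOSB and EGR1 were both lowest in replicate 1 (-0.20 and -0.43), and JUN, like FOS, was lowest in replicate 2 (-0.04). These correlations are descriptions over the 15 libraries and carry no test.

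**Figure D2:**
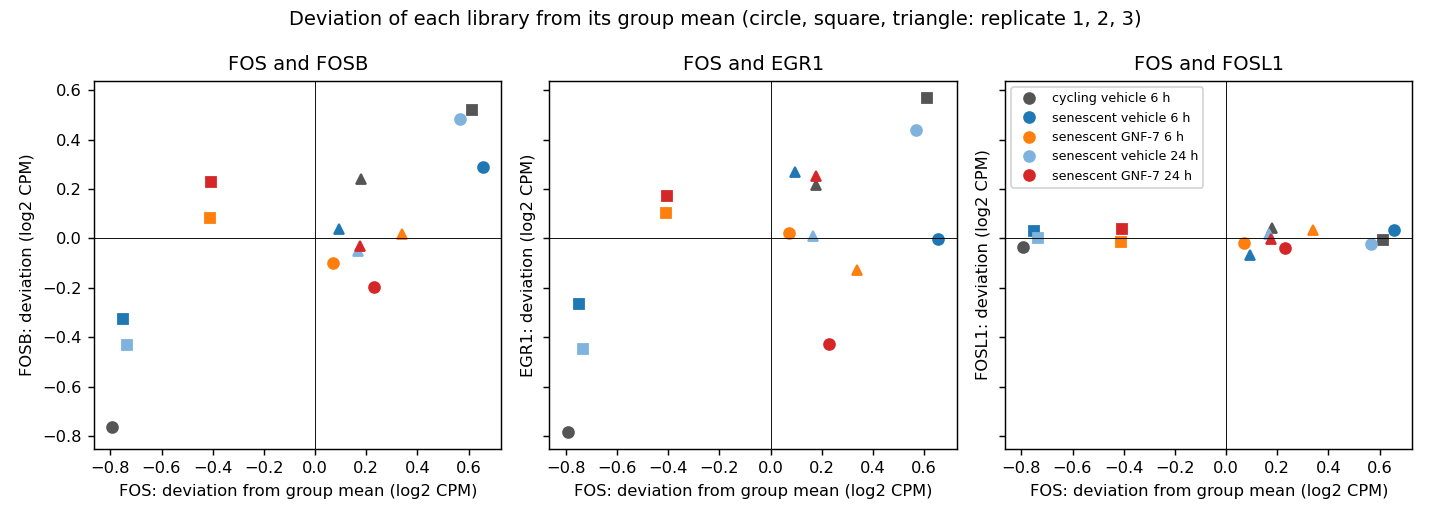
Deviation of each library from the mean of its group (log2 CPM) for FOS on the horizontal axis and FOSB, EGR1 or FOSL1 on the vertical axis, with colours for groups and symbols for replicates. FOSB and EGR1 scatter along with FOS (r 0.76 and 0.64), mainly in the groups without GNF-7, while FOSL1 stays near 0 in every library (r 0.02).

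FOSL1 (ENSG00000175592, chromosome 11, 65892049 to 65900573, minus strand), encoding FRA1, a FOS protein linked to RAS signalling and invasion, had the highest level of its family per kb of exon in all groups, while in CPM FOSL2 was higher in the 4 senescent groups. FOSL1 was at 365, 373 and 385 CPM in cycling libraries, at 246, 246 and 230 CPM in senescent vehicle and at 178, 179 and 185 CPM in GNF-7 at 6 h. At 24 h it was at 188, 191 and 193 CPM in vehicle and at 184, 194 and 189 CPM in GNF-7. The cycling, senescent vehicle and GNF-7 libraries at 6 h formed 3 separate levels, while the 24 h groups overlapped. FOSL1 fell by 0.64 with senescence (SE 0.037, edgeR adjusted p 5.31e-24) and by 0.41 with GNF-7 at 6 h (SE 0.037, edgeR adjusted p 1.35e-14). At 24 h the GNF-7 difference was -0.01 (edgeR adjusted p 0.77, 95% interval -0.09 to 0.06), although leaving out genes under a mean of 5 CPM gave 0.09 and a call (edgeR adjusted p 0.0268). Vehicle itself was lower at 24 h than at 6 h by 0.34 on the log2 scale (edgeR adjusted p 1.77e-10).

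FOSL2 (ENSG00000075426, chromosome 2, 28392448 to 28417312, plus strand), encoding FRA2, went the other way. It was at 227, 228 and 228 CPM in cycling libraries, 297, 296 and 291 CPM in senescent vehicle and 385, 377 and 383 CPM in GNF-7 at 6 h. At 24 h it was at 281, 278 and 285 CPM in vehicle and 239, 221 and 240.1 CPM in GNF-7. No 2 senescent groups overlapped, and GNF-7 at 6 h was the highest group and GNF-7 at 24 h the lowest of the 4. FOSL2 rose with senescence (log2 fold change 0.37, SE 0.036, edgeR adjusted p 2.64e-14) and with GNF-7 at 6 h (0.37, SE 0.035, edgeR adjusted p 7.21e-14), and fell by 0.27 with GNF-7 at 24 h (SE 0.036, edgeR adjusted p 1.53e-09).

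Levels per kb of exon allow the members of a family to be compared roughly with one another. The length used was that of all annotated exons of a gene merged, 3238 bases for FOS, 5553 for FOSB, 1887 for FOSL1 and 7157 for FOSL2. The order of FOSL1 and FOSL2 in the senescent groups depends on these lengths, since in CPM FOSL2 was higher there. A gene whose main transcript is shorter than this gets too low a share. FOSL1 gave 79.7% to 83.3% of the FOS family's CPM per kb in cycling libraries, 72.4% to 74.3% in senescent vehicle and 62.9% to 63.8% in GNF-7 at 6 h. FOSL2 gave 12.8% to 13.7%, 23.1% to 24.2% and 34.9% to 35.9% in these groups. At 24 h FOSL1 gave 66.6% to 69.9% in vehicle and 73.6% to 76.0% in GNF-7, and FOSL2 26.3% to 26.8% and 22.8% to 25.2%. FOS made up 1.14% to 6.11% of the family in libraries without GNF-7 and 0.304% to 0.646% in those with it. Per kb, the sum of the 4 genes was 232 to 249.8 CPM in cycling libraries and 132 to 135 CPM in GNF-7 at 24 h.

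**Figure D3:**
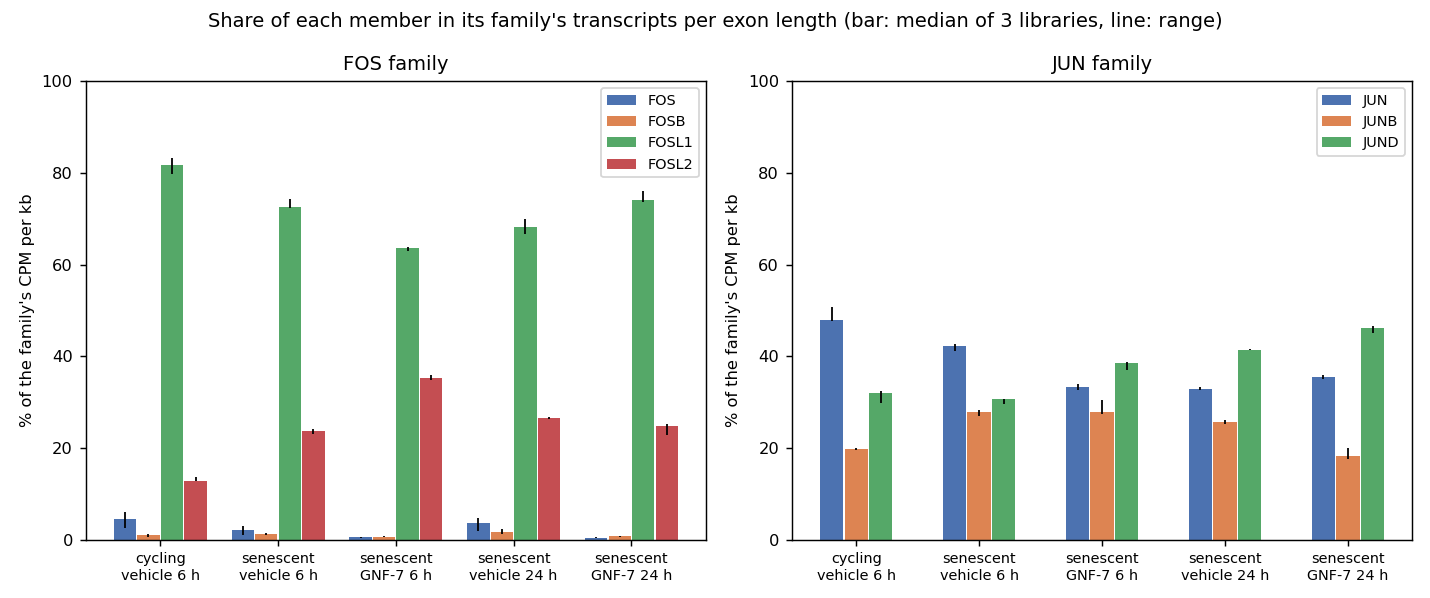
Share of each member in the summed CPM per kb of exon of its family (vertical axis, %), for the FOS family and the JUN family in the 5 groups; bars are medians of 3 libraries and lines the range. FOSL1 is the tallest FOS family bar in every group, and FOSL2 is highest in GNF-7 at 6 h, at a median of 35.4%.

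JUN (ENSG00000177606, chromosome 1, 58780788 to 58784327, minus strand), a single-exon gene for the main DNA-binding partner of FOS proteins, had 5 group levels with no overlap between neighbours. It was at 183, 191 and 198 CPM in cycling libraries, 167, 151 and 157 CPM in senescent vehicle at 6 h and 140, 125 and 136 CPM in senescent vehicle at 24 h. GNF-7 libraries were at 93.3, 93.6 and 98.2 CPM at 6 h and at 112, 108 and 112 CPM at 24 h. JUN was thus lowest in GNF-7 at 6 h. It fell by 0.74 with GNF-7 at 6 h (SE 0.043, edgeR adjusted p 1.45e-22), by 0.27 at 24 h (SE 0.043, edgeR adjusted p 1.71e-07) and by 0.27 with senescence (SE 0.042, edgeR adjusted p 8.21e-08).

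JUNB (ENSG00000171223, chromosome 19, 12791496 to 12793315, plus strand), a JUN protein that often opposes JUN at shared targets, was at 39.1, 41.0 and 39.1 CPM in cycling libraries. It was at 56.3, 49.7 and 55.2 CPM in senescent vehicle at 6 h and at 57.7, 50.04 and 53.0 CPM at 24 h, and with GNF-7 at 38.9, 44.8 and 42.1 CPM at 6 h and 28.2, 31.3 and 29.9 CPM at 24 h. The senescent vehicle groups overlapped each other and lay above all other groups. GNF-7 at 6 h overlapped the cycling libraries, and GNF-7 at 24 h was the lowest group. JUNB rose with senescence (0.43, SE 0.059, edgeR adjusted p 2.63e-09), fell by 0.36 with GNF-7 at 6 h (SE 0.059, edgeR adjusted p 9.67e-07) and by 0.85 at 24 h (SE 0.061, edgeR adjusted p 4.44e-19). It shares 259 exon bases with HOOK2 on the other strand, and since the strand setting of the counting is not given in the sources used here, its counts may include reads of that gene.

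JUND (ENSG00000130522, chromosome 19, 18279760 to 18281622, minus strand), the JUN protein that resting cells keep, was the JUN gene with no call at 6 h of GNF-7. It was at 65.3, 67.1 and 61.1 CPM in cycling libraries, 61.2, 57.6 and 61.4 CPM in senescent vehicle and 55.8, 55.9 and 60.0 CPM in GNF-7 at 6 h, and these groups overlapped in that order. At 24 h it was at 93.1, 82.9 and 89.2 CPM in vehicle and 76.7, 72.5 and 77.03 CPM in GNF-7, both above every library at 6 h. The difference with GNF-7 was -0.07 at 6 h and not called (edgeR adjusted p 0.291, 95% interval -0.17 to 0.03), and JUND fell by 0.23 at 24 h (SE 0.048, edgeR adjusted p 3.84e-05). The senescence difference of -0.10 was not called (edgeR adjusted p 0.0632), was called without cycling replicate 3 (edgeR adjusted p 0.0198) and had the opposite sign when libraries were scaled by total counts (0.03) or genes under a mean of 5 CPM left out (0.05). Per kb of exon, JUND gave 29.8% to 32.4% of the JUN family in cycling libraries and 45.0% to 46.6% in GNF-7 at 24 h, and JUN 47.7% to 50.8% and 35.1% to 35.8%.

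NR4A1 (ENSG00000123358, chromosome 12, 52022832 to 52059507, plus strand), encoding NUR77, was at 1.93, 1.31 and 1.99 CPM in cycling libraries, 5.13, 5.81 and 5.00 CPM in senescent vehicle and 13.6, 18.1 and 17.9 CPM in GNF-7 at 6 h. At 24 h it was at 2.07, 2.61 and 2.44 CPM in vehicle and 5.54, 5.29 and 5.55 CPM in GNF-7. The level of GNF-7 at 24 h overlapped that of vehicle at 6 h, and all other neighbours in the order of levels were apart. NR4A1 rose 3.05-fold with senescence (log2 fold change 1.61, SE 0.17, edgeR adjusted p 4.91e-13), 3.11-fold with GNF-7 at 6 h (1.64, SE 0.13, edgeR adjusted p 9.07e-17) and 2.31-fold at 24 h (1.21, SE 0.16, edgeR adjusted p 1.36e-09). Its exons share 754 bases with a long noncoding gene on the other strand that had no count in any library.

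NR4A3 (ENSG00000119508, chromosome 9, 99821855 to 99866891, plus strand), encoding NOR1, was at 0.483, 0.62 and 0.686 CPM in cycling libraries, from 12 to 21 counts. It was at 3.78, 5.65 and 5.58 CPM in senescent vehicle and 16.8, 17.5 and 17.5 CPM in GNF-7 at 6 h, and at 1.95, 1.73 and 1.66 CPM in vehicle and 2.67, 3.02 and 3.12 CPM in GNF-7 at 24 h. All 5 groups were apart. NR4A3 rose 8.26-fold with senescence (log2 fold change 3.05, SE 0.21, edgeR adjusted p 1.19e-20), 3.45-fold with GNF-7 at 6 h (1.79, SE 0.13, edgeR adjusted p 4.49e-18) and 1.64-fold at 24 h (0.72, SE 0.18, edgeR adjusted p 0.000468).

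The GNF-7 effect at 24 h minus that at 6 h was tested as an interaction. Of the 10 genes, 2 had a higher and 3 a lower value at 24 h, against 30.8% of all genes called (12.8% higher and 18.0% lower). With genes under a mean of 5 CPM left out, 5120 of 11234 genes were called. JUN (difference 0.47, SE 0.061, edgeR adjusted p 4.89e-09) and FOSL1 (0.40, SE 0.053, edgeR adjusted p 6.16e-09) were less reduced by GNF-7 at 24 h than at 6 h. For FOSL2 the effect turned from a rise to a fall (-0.64, SE 0.050, edgeR adjusted p 8.64e-17). JUNB was more reduced at 24 h (-0.49, SE 0.085, edgeR adjusted p 3.61e-06) and NR4A3 less raised (-1.07, SE 0.23, edgeR adjusted p 0.00012). No difference between times was called for FOS (-1.04, edgeR adjusted p 0.445, 95% interval -3.01 to 0.93), FOSB (-0.27), EGR1 (-0.38), JUND (-0.16) or NR4A1 (-0.43, edgeR adjusted p 0.113). NR4A1 was called in this contrast when replicate 1 of GNF-7 at 6 h was left out (-0.56, edgeR adjusted p 0.0427), and JUND without GNF-7 6 h replicate 2 or without vehicle 24 h replicate 2.

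**Figure D4:**
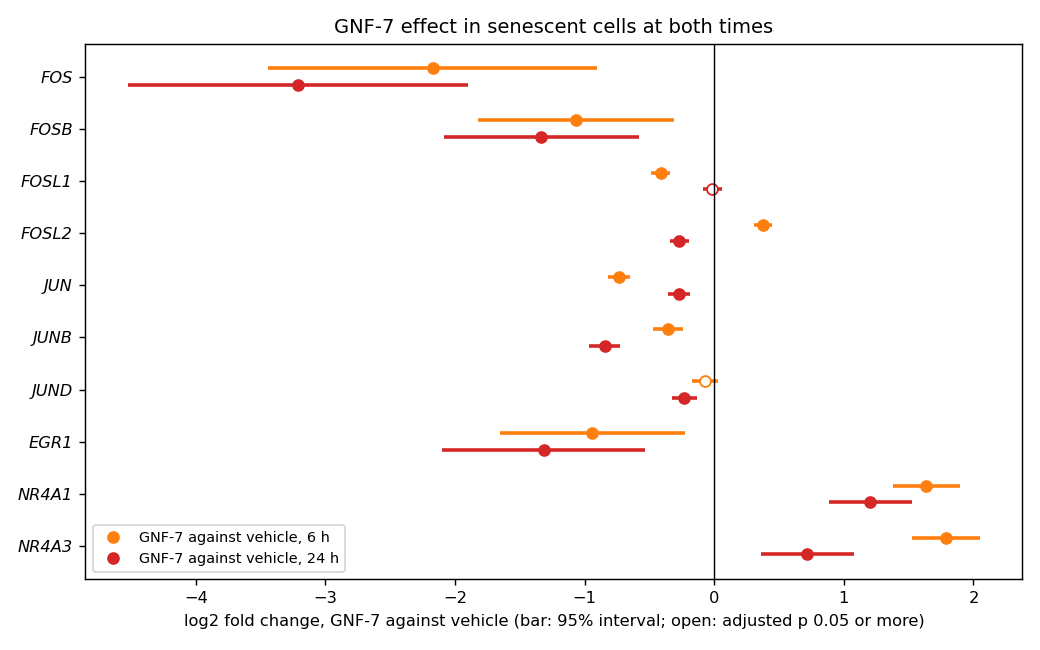
Log2 fold change of GNF-7 against vehicle in senescent cells (horizontal axis, with 95% intervals) at 6 h and 24 h for each gene; open points had an edgeR adjusted p of 0.05 or more. FOS has the lowest values at both times (-2.17 and -3.21) with wide intervals, and FOSL2 lies on opposite sides of 0 at the 2 times.

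Vehicle at 24 h against vehicle at 6 h showed what moved in senescent cells without GNF-7. FOSL1, JUN, NR4A1 and NR4A3 were lower and JUND was higher, so 5 of 10 were called, against 18.5% of all genes (9.26% higher and 9.29% lower), and the libraries of 6 genes did not overlap, against 32.9%. With genes under a mean of 5 CPM left out, 3569 of 11234 genes were called. NR4A3 fell by 1.48 (SE 0.17, edgeR adjusted p 3.12e-10), NR4A1 by 1.17 (SE 0.16, edgeR adjusted p 5.81e-08) and JUN by 0.25 (edgeR adjusted p 8.71e-06), and JUND rose by 0.56 (edgeR adjusted p 6.65e-14). FOS, FOSB, JUNB and EGR1 had log2 fold changes of 0.52, 0.25, 0.00 and -0.40 and were not called. FOSL2 (-0.07, edgeR adjusted p 0.204) was not called although its libraries did not overlap, and it was called lower (-0.18) when scaled by total counts. The vehicle libraries at 6 h serve in this comparison, in the senescence comparison and in the GNF-7 comparison at 6 h, so values of these comparisons are not independent.

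Senescent cells with GNF-7 for 6 h were also set against cycling cells. There 8 of 10 genes were called, 3 higher and 5 lower, against 75.7% of all genes (39.6% higher and 36.1% lower), and the libraries of 8 did not overlap, against 76.6% of all genes, which is again near the background. NR4A3 was 28.5-fold higher (log2 fold change 4.83, SE 0.18, edgeR adjusted p 4.36e-33) and NR4A1 9.49-fold higher, and FOS was 13.4-fold lower (-3.74, SE 0.53, edgeR adjusted p 5.79e-05). FOSL1 and JUN were lower by 2.07-fold and 2.01-fold. JUND was called lower (-0.17, edgeR adjusted p 0.00183), but it was at -0.03 and not called with total counts and at 0.03 when genes under a mean of 5 CPM were left out. JUNB (0.08, edgeR adjusted p 0.239), which was called higher with total counts (0.22) and without genes under that mean (0.28), and EGR1 (-0.39, edgeR adjusted p 0.303) were not called. EGR1 was called without cycling replicate 1 (-0.68, edgeR adjusted p 0.03).

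Other genes of the pathway were read from lists, beginning with leucine zipper partners, and their counts stand against the shares of all genes called given above. Of 11 other AP-1 partner and small MAF genes tested, 6 were higher and 1 lower with GNF-7 at 6 h, and 6 higher and 2 lower at 24 h, with list medians of 0.25 and 0.42 beside 0.01 and 0.04 for all genes. ATF3, a stress-induced partner of JUN that ATF4 can induce, was at 24.3 to 28.3 CPM in vehicle and 67.3 to 73.4 CPM in GNF-7 at 6 h and rose by 1.40 (SE 0.062, edgeR adjusted p 1.22e-28). At 24 h ATF3 rose by 1.29, and with senescence by 1.20. JDP2, a repressor that dimerizes with JUN, was at 4.30 to 5.36 CPM in vehicle and 20.9 to 23.0 CPM in GNF-7 at 6 h, a rise of 2.22 (SE 0.10, edgeR adjusted p 2.56e-27), and rose by 2.21 at 24 h. JDP2 fell by 0.94 with senescence. MAFG, a small MAF protein without an activation domain, rose by 0.25 at 6 h and 0.83 at 24 h.

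Among the other EGR and NR4A genes and their NAB corepressors, 4 of 6 were tested, of which 3 rose and 1 fell with senescence, 2 rose and 0 fell with GNF-7 at 6 h, and 1 rose and 1 fell with GNF-7 at 24 h. NR4A2, the remaining member of the receptor family, was at 2.66 to 3.58 CPM in cycling libraries, 15.1 to 16.1 CPM in senescent vehicle and 54.6 to 61.2 CPM in GNF-7 at 6 h. NR4A2 rose by 2.40 with senescence (SE 0.11, edgeR adjusted p 9.02e-29) and by 1.87 with GNF-7 at 6 h (SE 0.078, edgeR adjusted p 9.51e-30), while at 24 h the GNF-7 difference was -0.05 (SE 0.092, edgeR adjusted p 0.663). The interaction for NR4A2 was -1.92 (edgeR adjusted p 1.23e-20). NAB2, which EGR1 induces and which represses it, rose by 0.56 with senescence and by 0.19 with GNF-7 at 6 h (edgeR adjusted p 0.00364) and was not called at 24 h. NAB1 fell by 0.40 with senescence and by 0.29 with GNF-7 at 24 h. EGR2, named here after its values were seen, had 0 to 2 counts in cycling libraries and 10 to 13 in senescent vehicle at 6 h (edgeR adjusted p 0.000342). It had 5 counts in each vehicle library at 24 h and 9 to 22 in GNF-7, a log2 difference of 1.54 (SE 0.60, edgeR adjusted p 0.0239). EGR3 had at most 12 counts in any library.

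Of 32 other immediate early and early response genes tested, 10 were higher and 12 lower with GNF-7 at 6 h, 6 higher and 14 lower at 24 h, and 17 higher and 12 lower with senescence. PLK2, a kinase gene induced by serum and p53, was at 322 to 354 CPM in vehicle and 76.9 to 81.9 CPM in GNF-7 at 24 h, a fall by 2.07 (SE 0.040, edgeR adjusted p 7.63e-48), after a fall by 0.50 at 6 h. ZFP36L1, which promotes decay of AU-rich transcripts, fell by 0.48 at 6 h and 1.04 at 24 h. BTG2, an antiproliferative p53 target, rose by 1.24 with senescence and by 0.14 with GNF-7 at 6 h. The list medians with GNF-7 were 0.02 at 6 h and -0.07 at 24 h.

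Of 29 genes for MAP kinases and the factors bound at immediate early promoters, all were tested. With senescence 6 were higher and 19 lower (median -0.36, beside 0.06 for all genes), and with GNF-7 5 were higher and 11 lower at 6 h and 8 higher and 8 lower at 24 h. ELK3, an SRF partner, fell from 186 to 196 CPM in cycling libraries to 105 to 113 CPM in senescent vehicle (log2 fold change -0.80, SE 0.041, edgeR adjusted p 4.14e-26) and by a further 0.23 and 0.35 with GNF-7 at the 2 times. MAP2K6, a kinase that activates p38, was at 4.71 to 5.79 CPM in vehicle and 25.5 to 26.7 CPM in GNF-7 at 6 h and rose by 2.29 (SE 0.10, edgeR adjusted p 2.11e-28). RPS6KA2, which encodes an RSK kinase, rose by 1.70 at 24 h (SE 0.10, edgeR adjusted p 4.20e-23) and was not called at 6 h.

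Genes long described as AP-1 targets were the last list, with 21 of 22 tested; it includes VIM, which the mesenchymal list also holds. With GNF-7, 11 were lower and 3 higher at 6 h, and 15 lower and 3 higher at 24 h, with medians of -0.17 and -0.42. With senescence 14 were higher and 7 lower. CCL2, a chemokine, was at 28.9 to 34.7 CPM in vehicle and 3.92 to 4.84 CPM in GNF-7 at 6 h, and at 39.2 to 47.1 CPM and 0.747 to 0.868 CPM at 24 h. HMOX1, which encodes haem oxygenase and is also a target of NRF2, rose by 0.75 and 0.93 with GNF-7 and by 2.06 with senescence. The summed mesenchymal markers, mainly SPARC and FN1, were also lower in GNF-7 at 24 h, as given above, and their part was not tested.

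Genes with the most similar pattern to 4 of the members were sought by Pearson's r of log2 CPM over the 15 libraries, among 11207 genes. Nearest to FOS were B3GNT2 (0.977), EI24 (0.976) and TWSG1 (0.974), and nearest to FOSL1 were P2RY1 (0.99), ALKBH5 (0.99) and AGO2 (0.985). JUN was most like GORASP2 (0.981), AGPAT3 (0.972) and HSPA1A (0.972), the last of which has a near-identical copy and is uncertain. EGR1 had no gene as close, with SLC35G2 (0.906), SPPL2A (0.881) and FKBP14 (0.88) first. Between NR4A1 and NR4A3 r was 0.96 over the 15 libraries and -0.04 over their deviations from group means. These values describe libraries that share 5 groups.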

How the data were processed

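The values are raw counts of reads per Ensembl gene in 15 libraries, which the authors deposited as 1 unnormalized table. A stranded mRNA kit was used on total RNA, per the labels' protocols, and the submitters' processing notes name bcl2fastq 2.20.0.422, STAR 2.7.9a, featureCounts 1.5.1 and GRCh38. The annotation release and the strand setting of the counting are not given in the sources used here. Of 60673 rows, 3 belonged to 1 broken entry and were left out.

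Groups were taken from sample titles and columns matched by library name. Counts were tested with edgeR 4.0.16 (R 4.3.3) by the quasi-likelihood method with robust estimates, filterByExpr, TMM scaling and 1 mean per group over all 15 libraries, without a block. P-values were adjusted by Benjamini-Hochberg over all 18563 genes tested, with calls at an adjusted p under 0.05. CPM uses the TMM-scaled library sizes. The code was tested on simulated counts. No 2 libraries agreed within sampling noise (smallest chi-square per degree of freedom 3.02). Gene positions and exon lengths are from GENCODE 29.

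The genes and lists were chosen with earlier results of these data known. Named were all members, from each list the 3 genes with the smallest p for GNF-7 or senescence and a mean of at least 1 CPM, and for 4 members the 3 genes most alike. 1 gene that meets this rule is not reported here. Alternatives were RLE or total-count scaling, scaling without mitochondrial genes, all genes with a count kept, genes under a mean of 5 CPM left out, a replicate block, limma voom (3.58.1), DESeq2 (1.42.0), fits of only the groups compared, and leaving out each library.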

Additional observations from a re-analysis of the deposited data

Results flagged for a closer look

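The effect of GNF-7 in senescent cells differed between 24 h and 6 h, by the edgeR interaction test, for 5 of the 10 genes. On the log2 scale the value at 24 h minus that at 6 h was 0.47 for JUN (edgeR adjusted p 4.89e-09) and 0.40 for FOSL1 (edgeR adjusted p 6.16e-09). It was -0.64 for FOSL2 (edgeR adjusted p 8.64e-17), -0.49 for JUNB (edgeR adjusted p 3.61e-06) and -1.07 for NR4A3 (edgeR adjusted p 0.00012). FOSL2 was the gene of these whose effect was called in opposite directions at the 2 times. Vehicle itself was lower at 24 h than at 6 h for JUN, FOSL1 and NR4A3 (log2 fold changes -0.25, -0.34 and -1.48). For FOSL2 and JUNB vehicle was not called different between the times.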

How the results depend on the processing

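The number of the 10 genes called in each comparison stayed within 1.5 times the reported count under all 96 alternative values. This bound is loose: where most of the 10 genes were called no rise can exceed it, and the loss of a single call stays within it. Of the 960 values for single genes, 915 kept direction and side of the threshold. Opposite signs arose for differences that were not called, with 1 exception: JUND in GNF-7 at 6 h against cycling cells was at 0.0322 with genes under a mean of 5 CPM left out. JUND in senescence was at 0.0303 with total counts and 0.0484 with that filter. FOSL1 with GNF-7 at 24 h was at 0.0145 with total counts, 0.0872 with that filter and -0.0357 to 0.0021 over fits that each left out 1 library. FOSB spanned -0.5165 to 0.0289 in senescence, -0.4649 to 0.0167 in the interaction and -0.0327 to 0.449 in vehicle over time in such fits, the ends of opposite sign being without cycling replicate 2 and, for both others, without vehicle 24 h replicate 1. JUNB in vehicle over time was at 0.0039 with that filter, 0.0004 with limma voom and -0.0585 to 0.047 in such fits. JUND was called in the interaction with RLE factors or with mitochondrial genes left out of the scaling. The cause was not tested.

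Replicate numbers paired the libraries weakly at most: 30 same-numbered pairs had correlations of deviations from -0.037 to 0.058. A library was most like its own number in 23 of 60 cases. Among the senescent groups, r was -0.003 to 0.058 between replicates 1, 0.009 to 0.042 between replicates 2 and -0.021 to 0.016 between replicates 3. Same-numbered pairs with a cycling library had r of at most 0.009. With a replicate block, FOSB (-1.07, edgeR adjusted p 0.055) and EGR1 (-0.94, edgeR adjusted p 0.063) were not called with GNF-7 at 6 h, and JUND was called in senescence (-0.10, edgeR adjusted p 0.0499). Over all genes, total-count scaling shifted the median log2 fold change from 0.06 to 0.19 in senescence, from 0.01 to -0.10 in vehicle over time and from 0.10 to 0.24 for GNF-7 at 6 h against cycling cells. The lowest counts behind these genes, 12 to 21 for NR4A3 in cycling libraries, limit its fold in senescence.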
